A study of Mus musculus with 16 samples.

Results

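Livers of male C57BL/6 mice that ate a high-fat diet in alternation with a ketogenic diet (HK) were compared with livers of mice that ate the same high-fat diet in alternation with chow (HC). Both groups switched diet every 2 weeks for 16 weeks, so the comparison asks how liver RNA differed with the diet that filled the intervals between high-fat feeding. Fat supplied 58% of the calories of the high-fat diet, 90.5% of those of the ketogenic diet and 11% of those of chow. The mice were bought at 7 weeks of age, acclimated for 1 week, assigned to diets at random and fasted overnight before the livers were taken. Fed continuously, the high-fat diet (H) and chow (N) made up the other groups of the series, and their levels are given here as values beside HK and HC. Which diet the HK and HC mice ate last, the hour of collection and whether each library is a separate animal are not given in the sources used here. Each diet group is stated to hold 6 mice, and 4 libraries of each are present. All p-values below rest on the variation among those 4, which may be partly technical.

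Transcript abundance of 22612 genes in 16 libraries was given by the authors as TPM, a length-corrected share that sums to 1000000 in each library. The 11002 genes with 1 TPM or more in 4 or more of the HK and HC libraries (8 in all) were compared. Differences are of log2(TPM + 1), HK minus HC, which understates the change of genes with low values, and were tested with limma, with p-values adjusted over all 11002 genes by the Benjamini-Hochberg method. A gene passed at an adjusted p under 0.05 and was called when its fold change was also at least 2.

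A ketogenic diet supplies so little carbohydrate that the liver runs mainly on fatty acids, which it oxidises in mitochondria and partly exports as ketone bodies. The fatty acid-sensing nuclear receptor PPAR alpha switches on many of the genes for fatty acid uptake, oxidation and ketone production. Insulin and dietary sugar act in the other direction, through SREBP-1c and ChREBP, on the genes that make new fatty acids. SCD1, which puts a double bond into saturated fatty acids, lies at the end of that synthetic route and is known to respond strongly to diet.

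In HK livers 68 genes were called higher and 18 lower than in HC livers, which is 0.618% and 0.164% of the genes tested, or 0.782% for both directions. With no fold limit 474 genes passed as higher (4.31%) and 80 as lower (0.727%), together 5.04%. The HK and HC libraries did not overlap for 85 of the 86 called genes, beside 16.8% of all genes tested (14.7% with HK higher and 2.06% with HK lower). Genes were called from these same values, so their lack of overlap is no separate evidence. Where it is stated for a gene below, it describes the values. The direction of the small changes depended on scaling. The median difference over all genes was 0.19, and 79.55% of the genes lay above 0, whereas with median-ratio scaling the median was 0.01, 129 genes passed as higher and 177 as lower. Quantile normalization gave 158 and 122. All 86 called genes kept their sign under both scalings; 74 of them still passed in the median-ratio fit, 72 in the quantile fit and 60 in a fit on all 16 libraries. The medians of gene lists below are therefore also given relative to the median of all genes. Counts of list members are to be read beside 4.31% of all genes that passed as higher and 0.727% as lower. Counts of list members or markers from another fit are to be read beside all genes that passed in that fit. Without HK4 these were 2331 higher and 182 lower of 10917 genes tested.

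Some properties of the libraries moved with the diet. The 20 highest genes held 27.1% to 29.5% of all TPM in HK livers and 29.8% to 31.5% in HC livers, without overlap, so that the diet and this share cannot be told apart. With the share as a covariate 1 gene passed, Scd1, at a log2 fold change of -6.97 and an adjusted p of 0.00841. Correlations across genes between pairs of libraries, on the log2 scale, were 0.975 to 0.991 within the HK group, 0.985 to 0.988 within the HC group and 0.970 to 0.983 between the groups. HK1 and HK4 were the HK libraries least like the others of their group. The number of genes that passed with no fold limit was 162 without HK2 and 2513 without HK4, the lowest and highest of the fits that left out 1 library, against 554 with all 8. Albumin, the main secretory product of hepatocytes, was the highest gene in every library, and TPM values carry no record of sequencing depth, which is unknown.

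**Figure D1:**
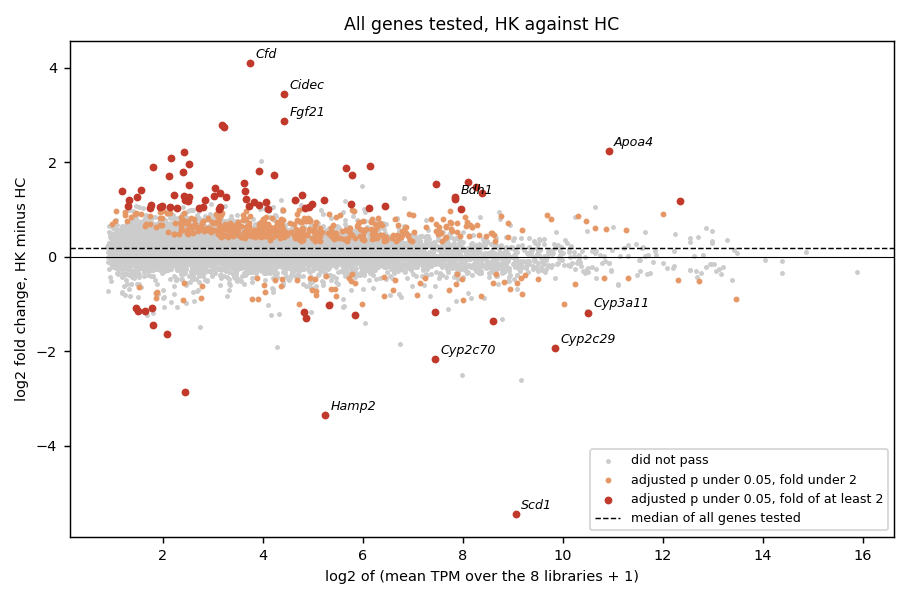
Log2 fold change of HK over HC (vertical axis) against the log2 of mean TPM over the 8 libraries plus 1 (horizontal axis) for the 11002 genes tested; orange points passed at an adjusted p under 0.05 and red points also had a fold change of at least 2. Scd1 lies lowest at -5.44 and Cfd highest at 4.10, and the dashed line marks the median of all genes at 0.19.

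The largest difference was a loss of Scd1 RNA, the stearoyl-CoA desaturase that makes oleic and palmitoleic acid. Scd1 (chr19:44394451-44407709, mm10, minus strand) had 66.7, 11.01, 19.7 and 15.8 TPM in HK livers, against 1583, 814, 854 and 916 TPM in HC livers. The highest HK library was far below the lowest HC library, and H and N livers, at 716 to 1150 and 1123 to 2867 TPM, lay with HC. The means were 28.3 ± 25.8 TPM in HK livers and 1041 ± 363 TPM in HC livers (log2 fold change -5.44 ± 0.45 (SE), adjusted p = 0.000327), where the value after ± beside a mean is, here and below, the SD of 4 libraries. Hamp2 (chr7:30922372-30924181), a hepcidin gene next to Hamp in the mouse, had 7.39, 2.54, 5.03 and 7.91 TPM in HK livers, against 116, 67.2, 42.3 and 48.8 TPM in HC livers (log2 fold change -3.35 ± 0.34 (SE), adjusted p = 0.000924). Every HK library was below every library of the other groups for Hamp2. Cyp2c70 (chr19:40153353-40187286), the mouse enzyme that makes muricholic acids, had 67.9, 47.3, 79.7 and 58.4 TPM in HK livers, against 276, 257, 267 and 333 TPM in HC livers, the HK and HC ranges lying well apart (log2 fold change -2.16 ± 0.15 (SE), adjusted p = 0.000141). Fam198a, which encodes a Golgi-associated kinase relative, was low in all groups and lower in HK, at 0.637 to 1.55 TPM in HK livers and 3.698 to 8.94 TPM in HC livers (-1.64).

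At the other end, the largest rises were those of Cfd and Cidec. Cfd (chr10:79890853-79892607), which encodes the complement protease adipsin, had 12.8, 16.1, 42.03 and 27.5 TPM in HK livers, against 1.33, 0, 0.173 and 0.231 TPM in HC livers. Cidec (chr6:113424634-113435760), whose protein sits on lipid droplets and fuses them into larger ones, had 70.9, 35.9, 21.3 and 26.2 TPM in HK livers, against 1.8, 1.91, 2.31 and 3.25 TPM in HC livers. The HK values of both genes exceeded every HC, H and N value, since the highest of these were 3.34 TPM for Cfd and 12.9 TPM for Cidec, both in H livers. Their differences were 4.098 ± 0.36 (SE, adjusted p = 0.000358) and 3.44 ± 0.31 (SE, adjusted p = 0.00037). Both main transcripts of Cidec were higher in HK: ENSMUST00000113089 was at 9.22 to 49.96 TPM in HK livers and 0.361 to 2.00 TPM in HC livers, and ENSMUST00000113091 at 7.75 to 18.6 TPM in HK livers and 0.0795 to 2.69 TPM in HC livers. Fgf21 (chr7:45613886-45615490), a liver hormone of fasting and PPAR alpha activation, had 68.1, 37.8, 9.65 and 34.9 TPM in HK livers, against 3.401, 2.58, 4.89 and 2.85 TPM in HC livers (log2 fold change 2.87 ± 0.45 (SE), adjusted p = 0.0089). HK3 was the lowest HK library for Fgf21 and still above all HC libraries, though inside the H range of 6.996 to 20.4 TPM. Krt23 (chr11:99477974-99493137), a keratin, had 20.3, 12.7, 8.77 and 18.3 TPM in HK livers, against 1.59, 0.876, 1.49 and 0.918 TPM in HC livers without overlap (log2 fold change 2.801 ± 0.24 (SE), adjusted p = 0.000328).

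**Figure D2:**
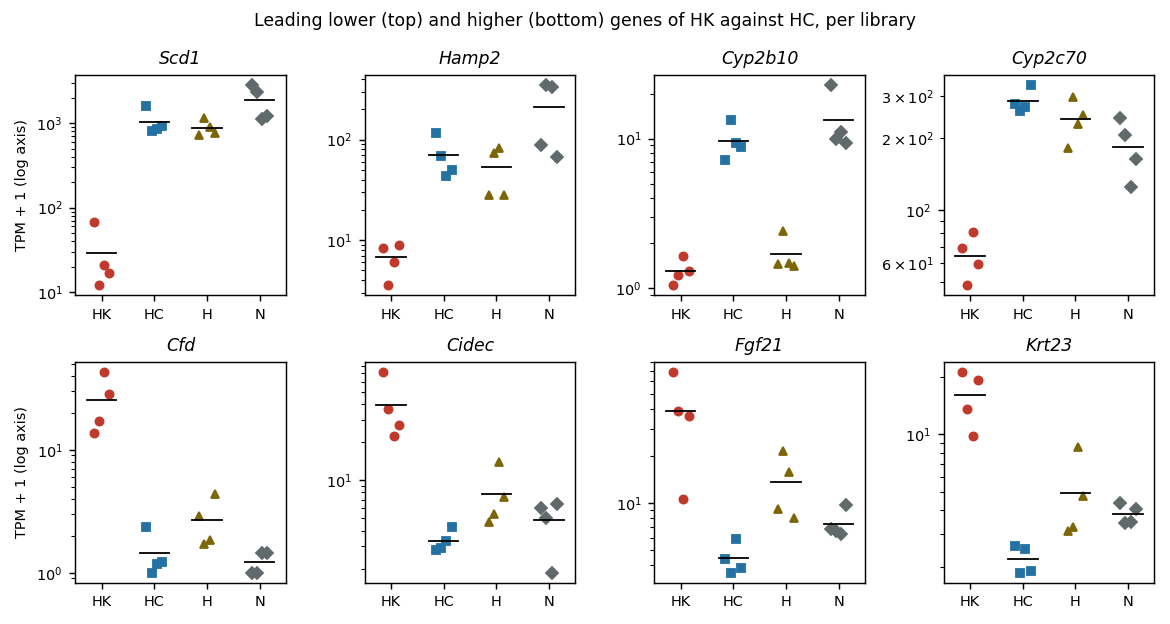
TPM + 1 on log axes in each library of HK, HC, H and N for 4 of the largest lower genes (top row) and the 4 largest higher genes (bottom row); points are libraries and bars are group means. The HK libraries do not overlap the HC libraries for any of the 8 genes, while the H libraries of Cyp2b10 lie next to HK.

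Cfd and Cidec are best known from fat cells, so markers of adipocytes were examined; in whole tissue, more cells of a type and more RNA per cell cannot be told apart. The 7 markers summed to 61.7 to 110.3 TPM in HK livers and 8.05 to 14.01 TPM in HC livers, a sum that holds Cfd and Cidec themselves. The other 5 summed to 8.07 to 26.6 TPM in HK livers and 6.04 to 11.5 TPM in HC livers, which overlapped. Nearly all of that was Fabp4, the one of the 5 that was tested, which macrophages and endothelium also express and which did not pass, at 8.07 to 26.6 TPM in HK livers and 5.95 to 11.5 TPM in HC livers. The defining adipocyte genes Adipoq, Plin1, Lep and Retn were under 1 TPM in all 8 libraries, with Lep at 0 in each and Adipoq at 0.0923 TPM at most.

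Among the other genes with the largest rises, Osbpl3, an oxysterol-binding protein relative, was at 5.18 to 14.1 TPM in HK livers and 0.364 to 1.56 TPM in HC livers (log2 fold change 2.22), and Pnldc1, a PARN-like exonuclease, at 4.92 to 11.7 TPM in HK livers and 0.972 to 1.79 TPM in HC livers (1.96). Cgref1, a secreted calcium-binding protein, averaged 6.48 ± 4.03 TPM in HK livers and 0.563 ± 0.256 TPM in HC livers (2.099). Neither group overlapped the other for these genes. Apoa4, an apolipoprotein that rises with hepatic fat, had 7053, 2448, 1505 and 2114 TPM in HK livers, against 822, 748, 388 and 467 TPM in HC livers (log2 fold change 2.23 ± 0.42 (SE), adjusted p = 0.0166). Its values in H livers, 2887 to 4964 TPM, were also above all HC values, and without HC3 the adjusted p of Apoa4 was 0.0504. Mfsd2a, a transporter of lysophosphatidylcholine induced by fasting, had 83.1, 114, 86.2 and 150.2 TPM in HK livers, against 9.21, 38.6, 33.3 and 42.5 TPM in HC livers (log2 fold change 1.93 ± 0.40 (SE), adjusted p = 0.0257). Its values overlapped those of HK in H livers (14.2 to 109.6 TPM) and in N livers (45.3 to 136.9 TPM). Without HK2, HC2 or HC3, left out in turn, the adjusted p of Mfsd2a was 0.0505 to 0.0816. Cntnap1 had 10.9, 2.83, 2.41 and 2.704 TPM in HK livers, against 0.432, 0.19, 0.388 and 0.244 TPM in HC livers, with HK1 far above the other HK libraries (1.91), and without HC2 the adjusted p of Cntnap1 was 0.054. Cyp2b9 is described with the P450 enzymes and Cd36 with the lipid droplet genes.

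In the list of triglyceride synthesis and lipid droplets, which also holds lipases and the complement protease gene Cfd, a minority of genes rose. Of 23 tested members of the list, 7 passed as higher and 0 as lower, with a median of 0.36, 0.17 above that of all genes. They were Cfd, Cidec, Cd36, Mgll, Lipe, Plin2 and Plin3. Cd36 (chr5:17781690-17849792), the fatty acid transporter, had 86.7, 80.4, 91.7 and 55.6 TPM in HK livers, against 30.03, 12.8, 20.4 and 20.9 TPM in HC livers (log2 fold change 1.89 ± 0.23 (SE), adjusted p = 0.00294). No HK library was below an HC library for Cd36. Plin2 and Plin3 encode proteins of the droplet surface. Plin2 averaged 593 ± 42.8 TPM in HK livers and 366 ± 85.3 TPM in HC livers (log2 fold change 0.72, adjusted p = 0.0251) and Plin3 37.6 ± 5.42 TPM in HK livers and 25.8 ± 1.84 TPM in HC livers (0.52, adjusted p = 0.0313). Neither passed in every fit: without HK2, HC2 or HC4, left out in turn, the adjusted p of Plin2 was 0.0535 to 0.0712, and without HK1, HK2, HC1, HC2, HC3 or HC4, left out in turn, the adjusted p of Plin3 was 0.0529 to 0.0936. Lipe, hormone-sensitive lipase, was at 10.9 to 11.9 TPM in HK livers and 6.32 to 8.201 TPM in HC livers (0.64), and Mgll, monoglyceride lipase, at 81.5 to 104 TPM in HK livers and 46.2 to 64.5 TPM in HC livers (0.70).

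Pnpla2, the first lipase of triglyceride breakdown, and the terminal synthases Dgat1 and Dgat2 had log2 differences of 0.09, 0.22 and -0.20 and did not pass. Pparg, the adipogenic nuclear receptor that drives Cidec and Cd36 in fatty livers of mice, was chosen for description after its values were seen. Pparg had 14.97, 12.2, 11.9 and 11 TPM in HK livers, against 5.01, 3.15, 5.18 and 5.41 TPM in HC livers (log2 fold change 1.26 ± 0.16 (SE), adjusted p = 0.00345), without overlap. Most of it came from ENSMUST00000171644, at 8.26 to 14.3 TPM in HK livers and 3.14 to 4.93 TPM in HC livers. Gpat3, a glycerol-phosphate acyltransferase also picked after seeing its values, had 18.3, 8.69, 8.19 and 9.24 TPM in HK livers, against 5.61, 2.01, 3.103 and 2.78 TPM in HC livers (log2 fold change 1.46 ± 0.28 (SE), adjusted p = 0.0176); without HC2 or HC3, left out in turn, the adjusted p of Gpat3 was 0.0505 to 0.058. Of the list, 4 passed as higher with median-ratio scaling and 3 in the fit on all 16 libraries.

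Of the genes of mitochondrial fatty acid oxidation 12 rose, each by a modest amount. All 21 members of the list were tested and had positive differences, beside 79.55% of all genes tested. Those 12 passed as higher and 0 as lower, beside 4.31% and 0.727% of all genes tested. The median was 0.50, 0.32 above that of all genes. Those that passed ranged from 0.45 to 0.98 on the log2 scale. Cpt1a, the malonyl-CoA-sensitive gate for fatty acids entering mitochondria, had 349.9, 278, 281 and 235 TPM in HK livers, against 152, 106, 163 and 159 TPM in HC livers (log2 fold change 0.98 ± 0.16 (SE), adjusted p = 0.00915). Acadm, the medium-chain acyl-CoA dehydrogenase, had 489.9, 601, 540.5 and 623 TPM in HK livers, against 337, 264, 318 and 318 TPM in HC livers (log2 fold change 0.86 ± 0.11 (SE), adjusted p = 0.00329). For both enzymes all HK libraries were above all HC libraries.

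The long-chain and short-chain dehydrogenases followed, with Acadl at 253 to 331 TPM in HK livers and 159 to 189 TPM in HC livers (0.71, adjusted p = 0.00643) and Acads at 211 to 238 TPM in HK livers and 129.6 to 158 TPM in HC livers (0.63, adjusted p = 0.0051). The others that passed were Acadvl, Hadha and Hadhb of the trifunctional enzyme, Hadh, Eci1 and Decr1, which handle unsaturated chains, Etfdh, which passes the electrons on, and Cpt2. Ppara itself had 68.7, 98.3, 132 and 48.7 TPM in HK livers, against 44.7, 23.3, 42.2 and 56.2 TPM in HC livers; 3 HK libraries were above every HC library, HK4 was inside the HC range, and it did not pass (log2 difference 1.01, adjusted p = 0.08). Without HK4 the difference of Ppara was 1.26 with an adjusted p of 0.0206, and over the 7 other fits that left out 1 library it did not pass. The number of members that passed was 3 with median-ratio scaling, 11 with quantile normalization and 3 in the fit on all 16 libraries. It was 6 without HK2 and 9 to 13 without any other single library.

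Peroxisomal and omega oxidation of fatty acids went the same way in part. Of 23 members tested, 7 passed as higher and 1 as lower (median 0.53). Acaa1a, a peroxisomal thiolase, had 312, 356, 358 and 397 TPM in HK livers, against 207, 218, 234 and 257 TPM in HC livers (log2 fold change 0.63 ± 0.10 (SE), adjusted p = 0.00898). Hsd17b4, the bifunctional enzyme of peroxisomal beta-oxidation, averaged 380.5 ± 29.3 TPM in HK livers and 239 ± 35.3 TPM in HC livers (0.68, adjusted p = 0.012). Neither gene's groups overlapped. Ehhadh, Acaa1b, Scp2, Crat and Ech1 also passed as higher, at 0.57 to 0.89. Cyp4f14, an omega-hydroxylase, fell: it had 96.5, 95.8, 125 and 75.8 TPM in HK livers, against 196, 144, 161 and 183 TPM in HC livers (log2 fold change -0.81 ± 0.15 (SE), adjusted p = 0.0162), and without HK2 the adjusted p of Cyp4f14 was 0.0538. The strongly PPAR alpha-responsive Cyp4a10 and Cyp4a14 had differences of 0.14 and 0.85 that did not pass. With median-ratio scaling 0 members passed as higher, in the fit on all 16 libraries 1, without HK2 or HC2 2 each and without HC4 4. Without HK4 12 did, beside 2331 of all 10917 genes tested in that fit.

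Other known PPAR alpha targets and acyl-CoA thioesterases contributed 9 genes higher and 0 lower of 20 tested (median 0.56). Aldh3a2, the fatty aldehyde dehydrogenase, had 420.1, 495, 419 and 482 TPM in HK livers, against 161, 129, 173 and 191 TPM in HC livers (log2 fold change 1.48 ± 0.12 (SE), adjusted p = 0.000327). Vnn1, the pantetheinase that recycles the vitamin part of coenzyme A, had 65.9, 75.8, 87.2 and 108 TPM in HK livers, against 29.2, 20.8, 27.02 and 20.4 TPM in HC livers (log2 fold change 1.74 ± 0.16 (SE), adjusted p = 0.000522). Ucp2, a mitochondrial carrier, had 22.7, 21.8, 21.2 and 14.2 TPM in HK livers, against 8.51, 8.32, 8.84 and 8.88 TPM in HC livers (log2 fold change 1.102 ± 0.14 (SE), adjusted p = 0.00347). For each of these enzymes and carriers the lowest HK library was above the highest HC library. Acot2, the mitochondrial long-chain acyl-CoA thioesterase, averaged 22.2 ± 5.25 TPM in HK livers and 9.37 ± 2.25 TPM in HC livers (1.16). Pdk4 and Angptl4, which PPAR alpha also controls, had differences of 0.55 and 0.11 and did not pass. In the median-ratio fit 5 members passed, and 6 in each of the quantile and 16-library fits and without HK2 or HC2.

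Several ketone body genes rose in HK livers. Of 10 tested members, 5 passed as higher and 1 as lower (median 0.52). Bdh1, which reduces acetoacetate to 3-hydroxybutyrate in mitochondria, had 314, 337, 305 and 337 TPM in HK livers, against 153, 109.9, 151 and 143 TPM in HC livers (log2 fold change 1.22 ± 0.11 (SE), adjusted p = 0.00037). The HK libraries were close to each other, and all were above every library of HC, H and N.

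Acat1, the mitochondrial acetoacetyl-CoA thiolase, averaged 336 ± 32.7 TPM in HK livers and 203 ± 40.98 TPM in HC livers (log2 fold change 0.74). It did not pass in every fit: without HK2 or HC3, left out in turn, the adjusted p of Acat1 was 0.0504 to 0.063. Bdh2, a cytosolic hydroxybutyrate dehydrogenase, went the other way, with 8.97, 7.26, 12.5 and 9.85 TPM in HK livers, against 18.2, 19.3, 18.5 and 17.3 TPM in HC livers (log2 fold change -0.88 ± 0.14 (SE), adjusted p = 0.00915). Fgf21, counted in this list too, is given above. Median-ratio scaling left 2 members higher and 1 lower, and so did the fit without HK2; without HC2 or HC3, 3 were higher.

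**Figure D3:**
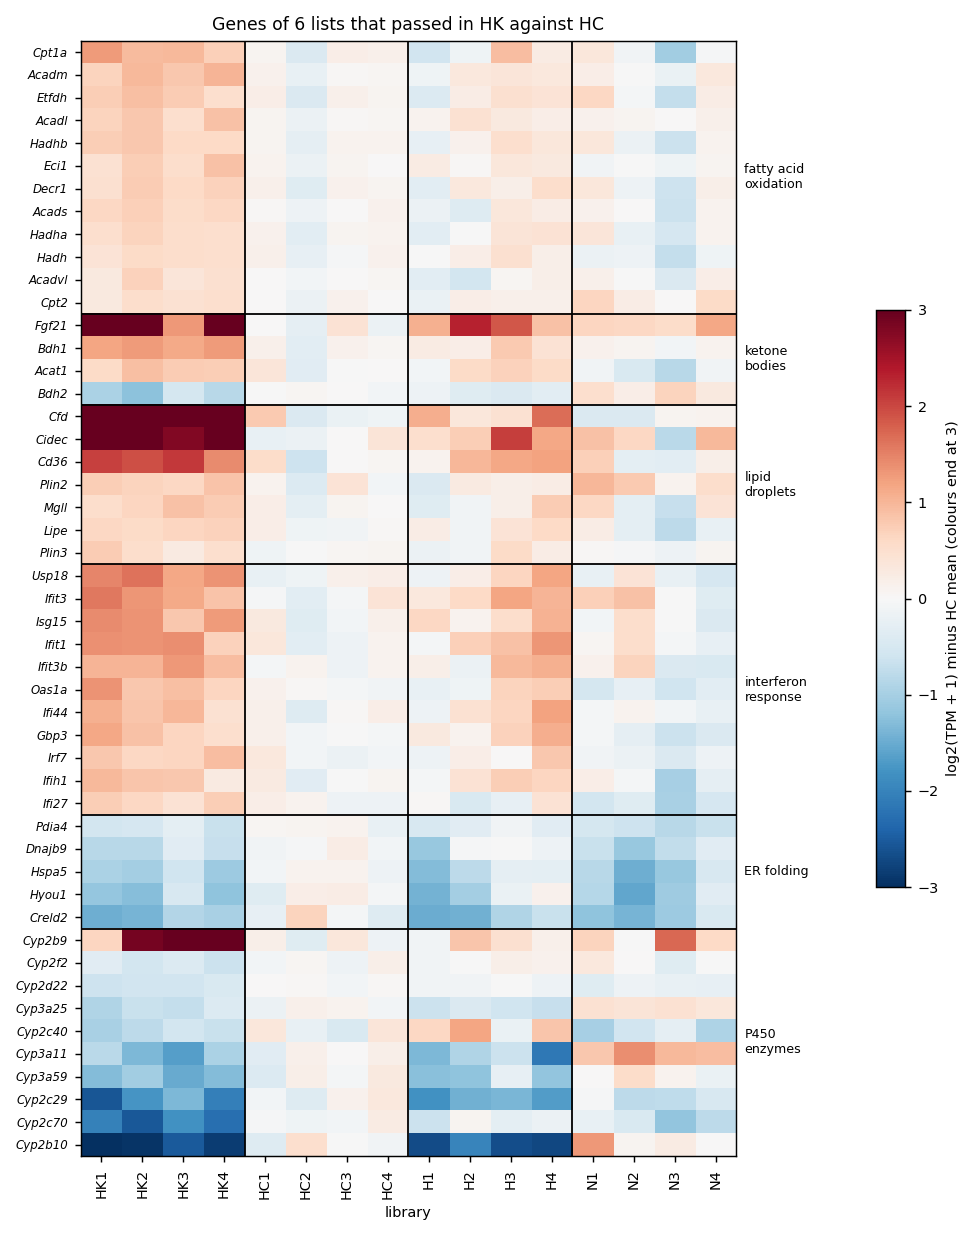
Log2(TPM + 1) minus the HC mean in each of the 16 libraries for genes of 6 lists that passed in HK against HC; red is higher and blue lower than the HC mean, and colours end at 3. Apart from Bdh2, the oxidation, ketone body, lipid droplet and interferon genes are red across the 4 HK libraries, and the ER folding and most P450 genes are blue in HK and in part of the H libraries.

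Apart from Scd1, genes that build fatty acids did not pass, although Srebf1 and Acacb did in a few other fits. Of 18 members of the fatty acid synthesis list tested, 0 passed as higher and 1 as lower, Scd1. Fasn, the fatty acid synthase, had 18.7, 50.3, 46.5 and 45.2 TPM in HK livers, against 41.6, 32.3, 22.3 and 53.3 TPM in HC livers, with HK1 far below the other HK libraries and the groups overlapping (log2 difference 0.08, adjusted p = 0.884). The sign of that difference turned negative with median-ratio scaling (-0.12) and quantile normalization (-0.09), and in 4 of the 8 fits that left out 1 library. Srebf1, which encodes SREBP-1c, had 56.6, 69.3, 82.1 and 77.7 TPM in HK livers, against 48.02, 41.9, 36.8 and 74.9 TPM in HC livers (0.53, adjusted p = 0.12). It passed as higher without HC4 (adjusted p = 0.0315) and with library quality weights. The median of the list was 0.12, -0.07 relative to all genes.

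Acetyl-CoA carboxylase and the enzymes that set malonyl-CoA were examined because the study is titled for malonylation of acetyl-CoA carboxylase 1. Acaca, which encodes that carboxylase, had 9.61, 13.4, 13.3 and 10.6 TPM in HK livers, against 11.2, 8.76, 6.95 and 11.3 TPM in HC livers; the groups overlapped and the difference did not pass (0.28, adjusted p = 0.267). The authors divided Acaca between long transcripts unevenly among replicates, ENSMUST00000103201 being at 0 to 7.68 TPM in HK livers and 1.98 to 8.46 TPM in HC livers. Acacb, the mitochondrial-surface carboxylase, averaged 5.02 ± 1.33 TPM in HK livers and 7.39 ± 1.23 TPM in HC livers (-0.50, adjusted p = 0.112). Of the 20 alternative fits it passed in 1, as lower with quantile normalization. Mlycd, malonyl-CoA decarboxylase, averaged 103 ± 2.54 TPM in HK livers and 98.7 ± 6.28 TPM in HC livers, a difference of 0.06 that was -0.14 with median-ratio scaling and -0.03 with quantile normalization.

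Among the 7 members of that list, 2 passed as higher. Acsf3, the mitochondrial malonyl-CoA synthetase, had 30.8, 37.5, 29.1 and 31.3 TPM in HK livers, against 22.2, 16.6, 17.8 and 17.8 TPM in HC livers (log2 fold change 0.76 ± 0.12 (SE), adjusted p = 0.00848), without overlap. Sirt5, the deacylase that removes malonyl groups from proteins, had 18.6, 19.3, 19.3 and 20.3 TPM in HK livers, against 16.6, 12.4, 11.9 and 11.5 TPM in HC livers (log2 fold change 0.54 ± 0.12 (SE), adjusted p = 0.0326). All HK values of Sirt5 were above the HC values, yet without HK1, HK2, HK3, HC2, HC3 or HC4, left out in turn, the adjusted p of Sirt5 was 0.0558 to 0.1. RNA levels say nothing of the malonylation of the protein itself, which was not measured in these libraries.

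Some desaturases and elongases rose, while Scd1 fell. Of 16 desaturases and elongases tested, 4 passed as higher and 1, Scd1, as lower. Fads2, the delta-6 desaturase, had 603, 501, 448 and 366 TPM in HK livers, against 206, 121, 179 and 257 TPM in HC livers (log2 fold change 1.35 ± 0.22 (SE), adjusted p = 0.00915). Elovl2, the elongase of long polyunsaturated chains, had 399.7, 314, 301 and 326 TPM in HK livers, against 163, 138, 187 and 176 TPM in HC livers (log2 fold change 1.01 ± 0.12 (SE), adjusted p = 0.00264). No HK library of Fads2 or Elovl2 was as low as an HC library, but single H libraries reached 579 and 327 TPM. The elongase Elovl5 averaged 341 ± 53.8 TPM in HK livers and 189.6 ± 37.8 TPM in HC livers (log2 fold change 0.85), and the dehydratase Hacd3 130.4 ± 8.15 TPM in HK livers and 89.2 ± 10.8 TPM in HC livers (0.55). Here too, without HK2 or HC2, left out in turn, the adjusted p of Elovl5 was 0.0515 to 0.0519, and without HK2 the adjusted p of Hacd3 was 0.067. Fads1, the delta-5 desaturase, was at 233 to 270.5 TPM in HK livers and 148 to 217 TPM in HC livers and did not pass (adjusted p = 0.0578), and Scd2 and Elovl6 had differences of 0.13 and 0.05. In the fit on all 16 libraries 1 member was higher and 1 lower, and without HK2 2 were higher.

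A few cholesterol synthesis genes passed as higher. Of 26 tested, 4 did, Hmgcs1, Msmo1, Mvk and Srebf2, and 24 had a positive difference, beside 79.55% of all genes tested (median 0.59, 0.40 above that of all genes). Hmgcs1, the cytosolic HMG-CoA synthase, had 215, 568, 553 and 303 TPM in HK livers, against 220, 80.8, 84.2 and 167 TPM in HC livers (log2 fold change 1.58 ± 0.38 (SE), adjusted p = 0.0419). It was the called gene whose groups overlapped, because HK1 was below HC1. Mvk, mevalonate kinase, had 35.3, 61.8, 64.9 and 42.05 TPM in HK livers, against 31.4, 16.2, 14.6 and 24.7 TPM in HC livers (log2 fold change 1.21 ± 0.25 (SE), adjusted p = 0.0266). None of Hmgcs1, Mvk and Srebf2 passed in every fit that left out 1 library. Without HK2, HK3, HC2, HC3 or HC4, left out in turn, the adjusted p of Hmgcs1 was 0.0567 to 0.123. Without HK2, HK3, HC2 or HC3, left out in turn, the adjusted p of Mvk was 0.0704 to 0.0936. The transcription factor gene Srebf2 was at 26.4 to 35.7 TPM in HK livers and 16.98 to 23.97 TPM in HC livers. Without HK1, HK2, HK3, HC2, HC3 or HC4, left out in turn, the adjusted p of Srebf2 was 0.0571 to 0.12. With median-ratio scaling, with quantile normalization, or without HK2, HK3, HC2 or HC3, 0 members passed; without HC4 2 did, and without HK1 or HC1 7 did.

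**Figure D4:**
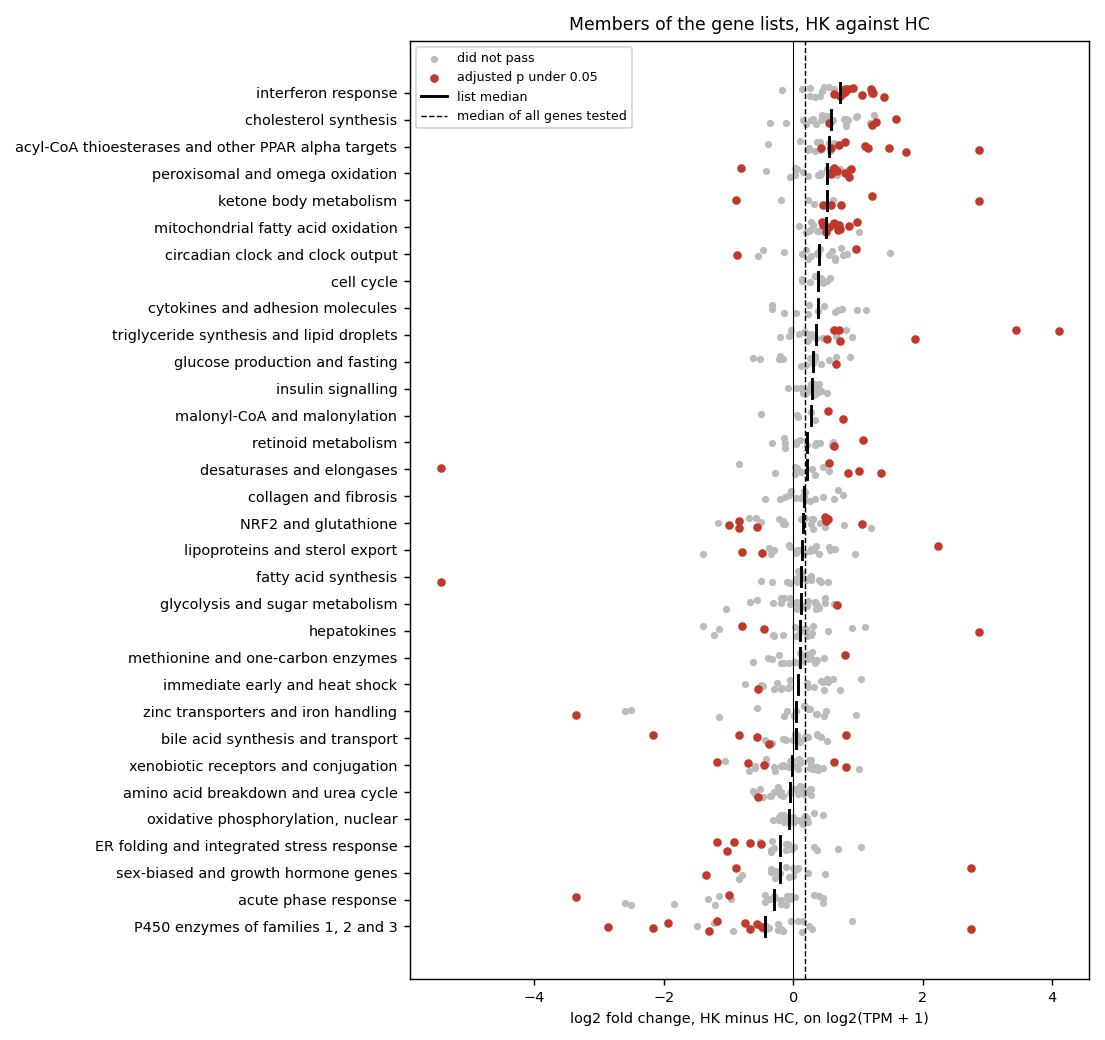
Log2 fold change of HK over HC for every tested member of 32 gene lists, ordered by list median (black bars); red points passed at an adjusted p under 0.05 and the dashed line is the median of all genes tested. Interferon response lies at the top with a median of 0.72 and P450 enzymes at the bottom with -0.43.

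Cytochrome P450 enzymes of families 1, 2 and 3, which oxidise drugs, steroids and bile acids, held more genes that fell than any other of the 32 lists. Of 30 tested, 9 passed as lower and 1 as higher, and the median was -0.43, -0.62 relative to all genes. Cyp2b10 (chr7:25897620-25926624), the standard target of the receptor CAR, had 0.0396, 0.224, 0.635 and 0.308 TPM in HK livers, against 6.18, 12.3, 8.33 and 7.71 TPM in HC livers (log2 fold change -2.87 ± 0.21 (SE), adjusted p = 0.000141). Its H values, 0.454, 1.39, 0.4797 and 0.411 TPM, were close to the HK values, and its N values, 8.39 to 21.98 TPM, to the HC values. Cyp2c29 had 240.2, 416, 559 and 345 TPM in HK livers, against 1355, 1090, 1568 and 1790 TPM in HC livers (log2 fold change -1.93 ± 0.23 (SE), adjusted p = 0.00294), again with H at 401 to 548 TPM beside HK. Cyp3a11, the main target of the receptor PXR in the mouse, had 1145, 778, 638 and 1034 TPM in HK livers, against 1570, 2205, 2025 and 2250 TPM in HC livers (log2 fold change -1.19 ± 0.18 (SE), adjusted p = 0.00864), and H livers held 448 to 1270 TPM. For Cyp2b10, Cyp2c29 and Cyp3a11 all HK libraries were below all HC libraries.

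Further P450 genes that passed as lower were Cyp2c70, Cyp3a59, Cyp3a25, Cyp2c40, Cyp2d22 and Cyp2f2. Cyp3a59 had 15.6, 18.9, 13.3 and 15.6 TPM in HK livers, against 29.9, 45.4, 38.7 and 49.4 TPM in HC livers (log2 fold change -1.298 ± 0.16 (SE), adjusted p = 0.00295). Near-identical members share reads in these families, so single members are uncertain and the summed levels were also taken. The 9 Cyp3a genes summed to 1131 to 1581 TPM in HK livers and 2242 to 3047 TPM in HC livers, and the 15 Cyp2c genes to 2004 to 3255 TPM in HK livers and 4142 to 5810 TPM in HC livers. The 5 Cyp2b genes summed to 1.84, 12.4, 15.1 and 35.6 TPM in HK livers and 7.19 to 12.7 TPM in HC livers, which overlapped. Nearly all of the HK sum was Cyp2b9, so the family's sum does not describe the level of Cyp2b10. Cyp2b9, a female-predominant enzyme in mice, passed in the other direction, with 1.798, 11.98, 14.4 and 35.2 TPM in HK livers, against 1.01, 0.394, 1.25 and 0.604 TPM in HC livers (log2 fold change 2.74 ± 0.60 (SE), adjusted p = 0.0306). Its HK values spread widely, with HK1 hardly above the highest HC library, and without HK2, HK3, HC1, HC2, HC3 or HC4, left out in turn, the adjusted p of Cyp2b9 was 0.0537 to 0.0984. The receptors Nr1i2 (PXR) and Nr1i3 (CAR) had differences of 0.26 and -0.05 that did not pass. The number of P450 genes lower was 10 with median-ratio scaling, 7 in the 16-library fit and 6 to 10 with 1 library left out.

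Some conjugating enzymes and carboxylesterases passed. Of 35 genes of xenobiotic receptors and conjugation tested, 3 passed as lower and 2 as higher, beside 0.727% and 4.31% of all genes tested. Ces2a, a carboxylesterase, had 76.4, 127, 115 and 113 TPM in HK livers, against 225, 237, 226 and 276 TPM in HC livers (log2 fold change -1.17 ± 0.15 (SE), adjusted p = 0.00345), and H livers, at 100.3 to 167 TPM, lay nearer HK. Sult1d1, a sulfotransferase, had 85.5, 69.2, 61.5 and 79.03 TPM in HK livers, against 106, 127, 125 and 121 TPM in HC livers (log2 fold change -0.70 ± 0.11 (SE), adjusted p = 0.00953). Neither enzyme's groups overlapped. Ugt2b35, a glucuronosyltransferase, was higher, at 99.1 to 159.7 TPM in HK livers and 60.04 to 84.5 TPM in HC livers (0.81, adjusted p = 0.0209), but without HK2, HC1, HC2 or HC3, left out in turn, the adjusted p of Ugt2b35 was 0.0508 to 0.0681.

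Glutathione genes moved in both directions. Of 26 NRF2 and glutathione genes tested, 4 passed as higher and 4 as lower. Those that fell were glutathione transferases, Gstm1, Gstm2, Gstm6 and Gstp2. Gstm6 had 61.4, 63.05, 52.9 and 66.1 TPM in HK livers, against 119, 101, 106 and 111 TPM in HC livers (log2 fold change -0.84 ± 0.09 (SE), adjusted p = 0.00202), and Gstm2 had 45.05, 45, 38.7 and 35.2 TPM in HK livers, against 112, 75.1, 72.4 and 73.9 TPM in HC livers (log2 fold change -0.99 ± 0.15 (SE), adjusted p = 0.00735). All HK values were below all HC values, and the 7 Gstm genes together held 1014 to 1334 TPM in HK livers and 1640 to 1979 TPM in HC livers. Those that rose were Gclc, of glutathione synthesis, Gsr, glutathione reductase, Srxn1, sulfiredoxin, and the epoxide hydrolase Ephx1. Gsr had 50.02, 57.5, 47.9 and 48.5 TPM in HK livers, against 37.1, 33.8, 35.7 and 35.98 TPM in HC livers (log2 fold change 0.50 ± 0.09 (SE), adjusted p = 0.0139). Srxn1 had 60.5, 40.1, 30.04 and 32.1 TPM in HK livers, against 18.4, 14.3, 21.1 and 19.9 TPM in HC livers (log2 fold change 1.06 ± 0.20 (SE), adjusted p = 0.0185), with HK1 highest, and without HK2 or HC2, left out in turn, the adjusted p of Srxn1 was 0.0631 to 0.0641. Nqo1, a standard NRF2 target, had a difference of 0.31 and did not pass. The 16-library fit left 0 higher and 1 lower, and median-ratio scaling left 1 higher. Without HK2, HC1 or HC3 2 were higher, and without HC2 1 was higher and 2 were lower. Without HK4 10 were higher, beside 2331 of all 10917 genes tested in that fit.

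Some bile acid genes fell. Of 22 tested, 4 passed as lower, Cyp2c70, Cyp27a1, Slc27a5 and Slco1a4, and 1 as higher, Abcb4. Among all genes tested, 0.727% passed as lower and 4.31% as higher. Cyp27a1, the sterol 27-hydroxylase, had 274, 317, 352 and 312 TPM in HK livers, against 424, 450.1, 444 and 527 TPM in HC livers (log2 fold change -0.55 ± 0.10 (SE), adjusted p = 0.0158); without HK2 the adjusted p of Cyp27a1 was 0.0519. Abcb4, the canalicular exporter of phosphatidylcholine, had 233, 225, 194 and 184 TPM in HK livers, against 118, 100.5, 129.5 and 128 TPM in HC livers (log2 fold change 0.81 ± 0.11 (SE), adjusted p = 0.00548). The groups did not overlap for either gene. Cyp7a1, which starts the classical bile acid pathway, and Abcb11, the bile salt export pump, had differences of 0.52 and 0.03 that did not pass. In the 16-library fit and without HK2 1 member passed as lower, and without HK3 or any single HC library 2 did.

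Interferon-response genes were the list with the highest median. Of 23 tested, 12 passed as higher and 0 as lower (median 0.72, 0.54 above that of all genes). Usp18 (chr6:121245906-121270917), the protease that removes ISG15 from proteins and damps interferon signalling, had 17.9, 19.99, 14.2 and 16.3 TPM in HK livers, against 4.87, 5.203, 6.55 and 6.74 TPM in HC livers (log2 fold change 1.404 ± 0.14 (SE), adjusted p = 0.000724). Isg15, the ubiquitin-like modifier itself, had 39.2, 37.1, 25.02 and 34.9 TPM in HK livers, against 17.2, 10.7, 13.2 and 15.5 TPM in HC livers (log2 fold change 1.21 ± 0.17 (SE), adjusted p = 0.0056). Ifit3 and its near-identical neighbour Ifit3b, RNA-binding antiviral proteins, together held 17.1 to 26.3 TPM in HK livers and 7.07 to 11.1 TPM in HC livers. The HK libraries were above the HC libraries for each of them.

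Ifit1, which binds foreign RNA caps, had 10.1, 9.98, 10.4 and 6.01 TPM in HK livers, against 4.51, 2.46, 2.92 and 3.66 TPM in HC livers (log2 fold change 1.202 ± 0.20 (SE), adjusted p = 0.00953). Its HK4 value was the lowest of the HK group but above HC. Irf7, a transcription factor of the pathway, averaged 41.05 ± 4.12 TPM in HK livers and 24.2 ± 3.997 TPM in HC livers (0.75, adjusted p = 0.0103). Oas1a, Ifi27, Ifi44, Ifih1 and Gbp3 also passed. H livers held 5.09, 6.81, 9.54 and 14.3 TPM of Usp18, of which H1 and H2 were near HC and H4 reached the HK range. Between 9 and 11 members passed without any library other than HK4, and 18 without HK4. With median-ratio scaling 9 passed, and in the 16-library fit 5. Summed markers of Kupffer cells, the resident macrophages, were 195 to 673 TPM in HK livers and 220.3 to 295 TPM in HC livers, lowest in HK4 among the HK libraries. The 10 markers had a median difference of 0.77, close to that of the interferon list. Of these markers 0 passed with all libraries and 10 without HK4, the fit in which 18 interferon genes passed. In that fit 2331 of all 10917 genes tested passed as higher. In HK4 the Kupffer cell sum was below every HC library, while Usp18, Isg15 and Ifit1 were above every HC library. Summed markers of sinusoidal endothelium were above HC in every HK library, at 159.9 to 251 TPM in HK livers and 107 to 151 TPM in HC livers. The part of either cell type in the interferon result was not tested.

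Promoter windows are shown for 3 of these genes because they carry the letters that interferon-activated factors are known to bind. The windows run from 250 bases before to 50 bases after the gene start, from RefSeq on GRCm38.p6, and are written in the sense of the gene. The core of the interferon-stimulated response element, GAAA, any 2 bases and GAAA, was searched on both strands. It was found in 12 of the 18 list members with a window and in 7 of the 9 that passed and had one, beside 3.99% of all 27025 genes with a window. The list was drawn up as interferon-response genes, so its excess over all genes does not bear on HK against HC. Isg15 (chr4:156200769-156201068, minus strand) had 3 overlapping matches, Ifit1 (chr19:34640639-34640938, plus strand) 2 and Ifit3 (chr19:34583279-34583578, plus strand) 2, those of the Ifit genes in reverse complement. Capitals mark the matches.
Isg15: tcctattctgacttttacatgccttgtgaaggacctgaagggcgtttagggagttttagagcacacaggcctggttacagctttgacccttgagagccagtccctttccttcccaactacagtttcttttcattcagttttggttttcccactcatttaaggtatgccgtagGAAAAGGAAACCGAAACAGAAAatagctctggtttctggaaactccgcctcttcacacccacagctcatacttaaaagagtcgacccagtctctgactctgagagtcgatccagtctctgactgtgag
Ifit1: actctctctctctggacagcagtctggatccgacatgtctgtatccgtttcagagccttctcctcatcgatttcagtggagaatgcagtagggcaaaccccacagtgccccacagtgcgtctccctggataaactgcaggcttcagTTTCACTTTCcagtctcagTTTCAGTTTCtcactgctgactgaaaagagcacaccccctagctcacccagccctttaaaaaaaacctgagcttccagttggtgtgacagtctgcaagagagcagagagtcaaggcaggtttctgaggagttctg
Ifit3: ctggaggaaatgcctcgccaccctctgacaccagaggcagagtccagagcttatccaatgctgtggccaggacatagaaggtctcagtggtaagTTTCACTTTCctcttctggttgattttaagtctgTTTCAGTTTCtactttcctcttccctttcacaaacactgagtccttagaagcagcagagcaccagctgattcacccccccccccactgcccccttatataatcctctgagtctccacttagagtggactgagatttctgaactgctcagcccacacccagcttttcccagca
The matches began 78 to 66 bases before the gene start in Isg15, 104 and 85 bases before it in Ifit1, and 156 and 122 bases before it in Ifit3. They describe the letters in these windows and were not tested as binding sites.

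Several chaperones of the endoplasmic reticulum (ER), where secreted proteins are folded, were lower in HK than in HC livers. Of 20 tested genes of ER folding and the integrated stress response, 5 passed as lower and 0 as higher (median -0.21, -0.39 relative to all genes). Hspa5, the Hsp70 of the ER known as BiP, had 173, 165, 221 and 158 TPM in HK livers, against 317, 364, 364 and 304 TPM in HC livers (log2 fold change -0.92 ± 0.12 (SE), adjusted p = 0.00347). Creld2, an ER disulfide isomerase, had 12.9, 13.5, 19.8 and 18.4 TPM in HK livers, against 31.4, 59.4, 35.96 and 28.4 TPM in HC livers (log2 fold change -1.18 ± 0.22 (SE), adjusted p = 0.0167), and without HK2 the adjusted p of Creld2 was 0.063. Hyou1, the co-chaperone of BiP, had 22.9, 20.8, 37.3 and 22.2 TPM in HK livers, against 40.4, 60.2, 60.5 and 49.9 TPM in HC livers (log2 fold change -1.03 ± 0.19 (SE), adjusted p = 0.0159). Every HK library was below every HC library for all 3.

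Pdia4, a disulfide isomerase, averaged 82.4 ± 9.298 TPM in HK livers and 117 ± 11.97 TPM in HC livers (log2 fold change -0.50), and Dnajb9, a BiP co-chaperone, 30.96 ± 5.495 TPM in HK livers and 49.8 ± 5.81 TPM in HC livers (-0.68). Manf, an ER protein outside the list, had 27.7, 37.4, 44.1 and 23.9 TPM in HK livers, against 69.1, 115, 85.5 and 52.9 TPM in HC livers (log2 fold change -1.24 ± 0.24 (SE), adjusted p = 0.019). Most of these genes no longer passed when single libraries were left out: without HK2, HC2 or HC3, left out in turn, the adjusted p of Hyou1 was 0.0504 to 0.0569; without HK2, HC2 or HC3, left out in turn, the adjusted p of Dnajb9 was 0.0531 to 0.0678; without HK1, HK2, HC1, HC2 or HC3, left out in turn, the adjusted p of Pdia4 was 0.0655 to 0.0963; and without HC2 or HC3, left out in turn, the adjusted p of Manf was 0.0531 to 0.0579. All H and N livers were below every HC liver for Hspa5, at 136 to 279 and 120.4 to 241 TPM. The same held for Creld2, at 12.6 to 23.1 TPM in H livers and 13.5 to 26.6 TPM in N livers. For Hyou1 the means were 25.8 TPM in HK, 27.6 in N, 36.6 in H and 52.8 in HC livers. For Manf they were 33.3 TPM in HK, 36.3 in N, 51.3 in H and 80.7 in HC livers. For these 4 genes HC was thus the highest group, and N was near HK. Atf4 and Ddit3, regulators of the integrated stress response, had differences of -0.12 and -0.35 that did not pass. Without HK2 1 member passed as lower, without HC2 or HC3 2 each, in the 16-library fit 1, and with median-ratio scaling 7.

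The windows of Hspa5 and Creld2 are given because both hold the ER stress response element, CCAAT, any 9 bases and CCACG, the sequence bound by NF-Y with ATF6. It was found on either strand in 6 of the 20 list members with a window and in 2 of the 4 that passed and had one, beside 0.137% of all genes with a window. Because the list was drawn up as ER folding and stress genes, its excess does not bear on HK against HC. Hspa5 (chr2:34771840-34772139, plus strand) and Creld2 (chr15:88819396-88819695, plus strand, the match in reverse complement) are written in the sense of the gene from RefSeq on GRCm38.p6, with the match in capitals.
Hspa5: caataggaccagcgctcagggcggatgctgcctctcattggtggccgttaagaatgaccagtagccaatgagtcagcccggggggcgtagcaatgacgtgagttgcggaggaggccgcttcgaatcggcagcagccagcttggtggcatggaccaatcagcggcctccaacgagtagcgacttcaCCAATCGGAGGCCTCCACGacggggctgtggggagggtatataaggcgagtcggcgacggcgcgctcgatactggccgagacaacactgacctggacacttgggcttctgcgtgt
Creld2: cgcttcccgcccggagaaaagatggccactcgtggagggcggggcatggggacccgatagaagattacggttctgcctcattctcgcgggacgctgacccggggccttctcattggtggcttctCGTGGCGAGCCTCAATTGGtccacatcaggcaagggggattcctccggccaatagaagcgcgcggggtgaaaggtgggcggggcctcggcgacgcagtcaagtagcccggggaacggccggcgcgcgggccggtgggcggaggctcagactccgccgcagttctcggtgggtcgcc
The other 4 genes with the element, Hsp90b1, Pdia6, Dnajc3 and Calr, had log2 differences of -0.33, -0.06, -0.02 and -0.35 and did not pass. The sterol regulatory element TCACNCCAC was found in 1 of 18 cholesterol synthesis genes with a window, Hmgcs1 (1.44% of all genes), and a strict form of the PPAR alpha element, AGGNCA repeated after any 1 base, in 0 of 19 mitochondrial oxidation genes (0.451% of all genes).

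Secreted proteins of the hepatocyte changed in a few members. Of 22 lipoprotein and sterol export genes tested, 1 passed as higher, Apoa4, and 2 as lower. Apoc3, an inhibitor of triglyceride clearance, was among those that fell, at 3759 to 4983 TPM in HK livers and 5525 to 6647 TPM in HC livers (-0.48, adjusted p = 0.0399). All its HK values were below the HC values, though without HK1, HK2, HK3, HC1, HC2, HC3 or HC4, left out in turn, the adjusted p of Apoc3 was 0.0628 to 0.123. Angptl8, an insulin-induced secreted protein, had 27.1, 32.04, 20.5 and 59.4 TPM in HK livers, against 179.6, 58.3, 77.6 and 66.98 TPM in HC livers; HC1 was far above the other HC libraries, the groups overlapped by 1 library, and it did not pass (-1.39, adjusted p = 0.0546). Without HK4, 6 genes of the list were higher and 5 lower, beside 2331 and 182 of all 10917 genes tested in that fit.

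Most acute phase genes had negative differences, and 2 passed. Of 27 tested, 5 had a positive difference, 2 passed as lower and 0 as higher (median -0.29, -0.48 relative to all genes). Among all genes tested, 79.55% had a positive difference, 0.727% passed as lower and 4.31% as higher. The hepatocyte markers, whose sum was mostly Alb and was lower in every HK library, had a median of -0.28 with 1 of 10 above 0. Their part in the acute phase values was not tested. The 2 genes that fell were Hamp2 and Orm1, the alpha-1-acid glycoprotein, which had 942, 588, 769 and 525 TPM in HK livers, against 1360, 1606, 1343 and 1185 TPM in HC livers (log2 fold change -0.99 ± 0.17 (SE), adjusted p = 0.0127). The metallothionein Mt1 had 718, 45.3, 95.04 and 115 TPM in HK livers, against 1374, 1050, 747 and 469 TPM in HC livers. HK1 stood far above the other HK libraries and inside the HC range, and the difference did not pass (log2 difference -2.604, adjusted p = 0.054); without HK1 it was -3.40 with an adjusted p of 0.00201. Hamp, the iron-regulatory hormone hepcidin, was at 304 to 1380 TPM in HK livers and 1095 to 2487 TPM in HC livers and did not pass (-1.15). In all, 6 acute phase genes passed as lower with median-ratio scaling or without HK1, and 5 without HK3 or HK4.

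Among 21 hepatokines, the hormones made by the liver, 1 passed as higher, Fgf21, and 2 as lower, among them Fetub, which inhibits metalloproteases and was at 409.9 to 560.2 TPM in HK livers and 607 to 769.5 TPM in HC livers (-0.46); without HK1, HK2, HK3, HC1, HC2, HC3 or HC4, left out in turn, the adjusted p of Fetub was 0.0621 to 0.128. Of 21 sex-biased and growth hormone-controlled genes, Mup3 and Mup21 passed as lower and Cyp2b9 as higher. Mup21, a major urinary protein, had 124, 284, 306 and 182 TPM in HK livers, against 516, 643, 695 and 360.5 TPM in HC livers (log2 fold change -1.35 ± 0.29 (SE), adjusted p = 0.0272), and Mup3 was at 4683 to 10330 TPM in HK livers and 13060 to 15570 TPM in HC livers (-0.89). Both no longer passed when single libraries were left out: without HC1, HC2 or HC3, left out in turn, the adjusted p of Mup21 was 0.0516 to 0.0936, and without HK2, HC1, HC2, HC3 or HC4, left out in turn, the adjusted p of Mup3 was 0.0653 to 0.125. Mup19 rose, with 5711, 6957, 10690 and 5768 TPM in HK livers, against 2535, 3054, 3272 and 3698 TPM in HC livers (log2 fold change 1.18 ± 0.20 (SE), adjusted p = 0.0107), but its adjusted p in the 16-library fit was 0.214. The Mup genes share most of their sequence, and the 21 of them together held 73770 to 126600 TPM in HK livers and 63600 to 84990 TPM in HC livers, which overlapped.

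The lists of carbohydrate, amino acid and one-carbon genes each held 1 gene that passed. Among all genes tested, 4.31% passed as higher and 0.727% as lower. Of 17 genes of glucose production and fasting 1 passed as higher, Pcx, pyruvate carboxylase, which had 321, 396, 356 and 311 TPM in HK livers, against 248, 196, 204 and 224 TPM in HC livers without overlap (log2 fold change 0.66 ± 0.11 (SE), adjusted p = 0.00924). Pcx did not pass with median-ratio scaling, the 16-library fit or the replicate block (adjusted p = 0.0577, 0.163 and 0.0524). Pck1 and G6pc, the main gluconeogenic enzymes, had differences of 0.12 and -0.22 that did not pass. Of 26 genes of glycolysis and sugar metabolism 1 passed as higher, Gys2, the liver glycogen synthase, at 78.95 to 135 TPM in HK livers and 55.9 to 77.5 TPM in HC livers (0.68, adjusted p = 0.0413); without HK1, HK3, HC1, HC2 or HC3, left out in turn, the adjusted p of Gys2 was 0.0751 to 0.122. Of 29 genes of amino acid breakdown and the urea cycle 1 passed as lower, Asl, argininosuccinate lyase, at 371 to 514 TPM in HK livers and 548 to 716 TPM in HC livers (-0.54); without HK2, HK3, HC2, HC3 or HC4, left out in turn, the adjusted p of Asl was 0.0531 to 0.114. Chdh, choline dehydrogenase, was the gene of 21 in one-carbon metabolism that passed as higher, at 73.96 to 108 TPM in HK livers and 42.03 to 64.01 TPM in HC livers (0.80), and without HK2 the adjusted p of Chdh was 0.0519.

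In 5 lists 0 genes passed in either direction by limma. These were 25 nuclear genes of oxidative phosphorylation (median -0.07, -0.26 relative to all genes), 18 of collagen and fibrosis (0.16), 19 of insulin signalling (0.29), 13 cytokines and adhesion molecules (0.38) and 8 cell cycle genes (0.39). At an unadjusted p under 0.05 there were 9, 3, 9, 3 and 2 genes in these lists, beside 3196 of all 11002 genes tested. Without HK4, 9 insulin signalling, 4 collagen, 2 cytokine and 1 cell cycle gene passed as higher, and 1 oxidative phosphorylation gene passed as higher and 3 as lower. In that fit 2331 of all 10917 genes tested passed as higher and 182 as lower. Among 20 clock genes Bhlhe41, a repressor, was higher at 1.45 to 2.398 TPM in HK livers and 0.173 to 0.825 TPM in HC livers (0.97) and Cry1, another repressor, lower at 1.26 to 1.95 TPM in HK livers and 3.22 to 4.62 TPM in HC livers (-0.87). Neither passed in the 16-library fit (adjusted p = 0.0813 and 0.064), nor did Cry1 with the replicate block (0.0524) or Bhlhe41 with quantile normalization (0.0875), and without HC2 the adjusted p of Bhlhe41 was 0.0611. Dbp, a clock output gene, had 63.6, 50.3, 78.8 and 167 TPM in HK livers, against 18.1, 18.6, 20.8 and 83.4 TPM in HC livers and did not pass (1.502, adjusted p = 0.0878), but without HC4, which stood apart from the other HC libraries, the adjusted p was 0.018 and 5 clock genes passed as higher.

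The remaining lists each held 1 or 2 genes that passed, beside 5.04% of all genes tested. Of 22 immediate early and heat shock genes Hspa8, the constitutive Hsp70, was lower, at 306 to 457 TPM in HK livers and 500.5 to 556 TPM in HC livers (-0.54), and without HK1, HK2, HK3, HC1, HC2, HC3 or HC4, left out in turn, the adjusted p of Hspa8 was 0.0502 to 0.0936. Of 15 retinoid genes Rdh9 and Rxra were higher. Rdh9, a retinol dehydrogenase, had 112, 132, 98.4 and 123 TPM in HK livers, against 48.4, 40.5, 51.1 and 88.3 TPM in HC livers (log2 fold change 1.07 ± 0.20 (SE), adjusted p = 0.0179). Rxra, the shared partner of PPAR alpha and other receptors, was at 144 to 238 TPM in HK livers and 103 to 140.2 TPM in HC livers (0.63). Neither Rdh9 nor Rxra passed in every fit that left out 1 library. Without HK2, HC2 or HC3, left out in turn, the adjusted p of Rdh9 was 0.0545 to 0.067. Without HK1, HK2, HK3, HC1, HC2 or HC3, left out in turn, the adjusted p of Rxra was 0.0673 to 0.128. Of 19 zinc transporter and iron genes 1 passed, Hamp2, as lower; without HK4, 4 were higher and 2 lower, and without HK1 3 were lower.

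Markers of other liver cells were checked in the same libraries. Hepatocyte markers summed to 83460 to 90650 TPM in HK livers and 103200 to 112900 TPM in HC livers, lower in every HK library, with 1 of 10 passing as lower (Serpina1c, log2 fold change -0.51). Most of that sum was Alb, at 53000 to 54760 TPM in HK livers and 64200 to 72310 TPM in HC livers. The Kupffer cell sum of HK4 was below every HC library. Of 10 markers of sinusoidal endothelium 2 passed as higher, Oit3 and Clec4g (0.81 and 0.69); without HK4 7 did, with quantile normalization or all 16 libraries 0, and without HK2, HK3 or any single HC library 1. Recruited macrophage markers summed to 97.7 to 436 TPM in HK livers and 114 to 183 TPM in HC livers, stellate cell markers to 316 to 550 TPM in HK livers and 246 to 349.7 TPM in HC livers, and red cell markers to 522 to 932 TPM in HK livers and 638 to 2336 TPM in HC livers, each with 0 passing. The same held for markers of neutrophils, lymphocytes and plasma cells, cholangiocytes, exocrine pancreas and pericentral hepatocytes, and of 10 periportal markers 1, Cyp2f2, was lower.

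The livers of mice kept on the high-fat diet (H) were placed relative to HK and HC. The H mean lay between the HK and HC means for 82 of the 86 called genes, beside 40.8% of all genes tested; the called genes were chosen for a wide gap between HK and HC. Over all 86 it was nearer HC for 63 and nearer HK for 23 (26.7%, beside 30.6% of all genes tested). Of the 68 higher genes 13 had H nearer HK, among them Apoa4, Fgf21, Osbpl3 and Fabp2. Of the 18 lower genes 10 did, among them Cyp2b10, Cyp2c29, Cyp3a59, Cyp3a11 and Ces2a. The N mean was nearer HC for 69 of the 86 and nearer HK for 17 (19.8%, beside 33.7% of all genes tested). Among those 17 were the higher genes Mfsd2a, Gpat3, Acot2 and Hspb1 and the lower genes Hyou1, Creld2 and Manf. These positions are descriptions with no test, because HK and HC values chose the genes.

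**Figure D5:**
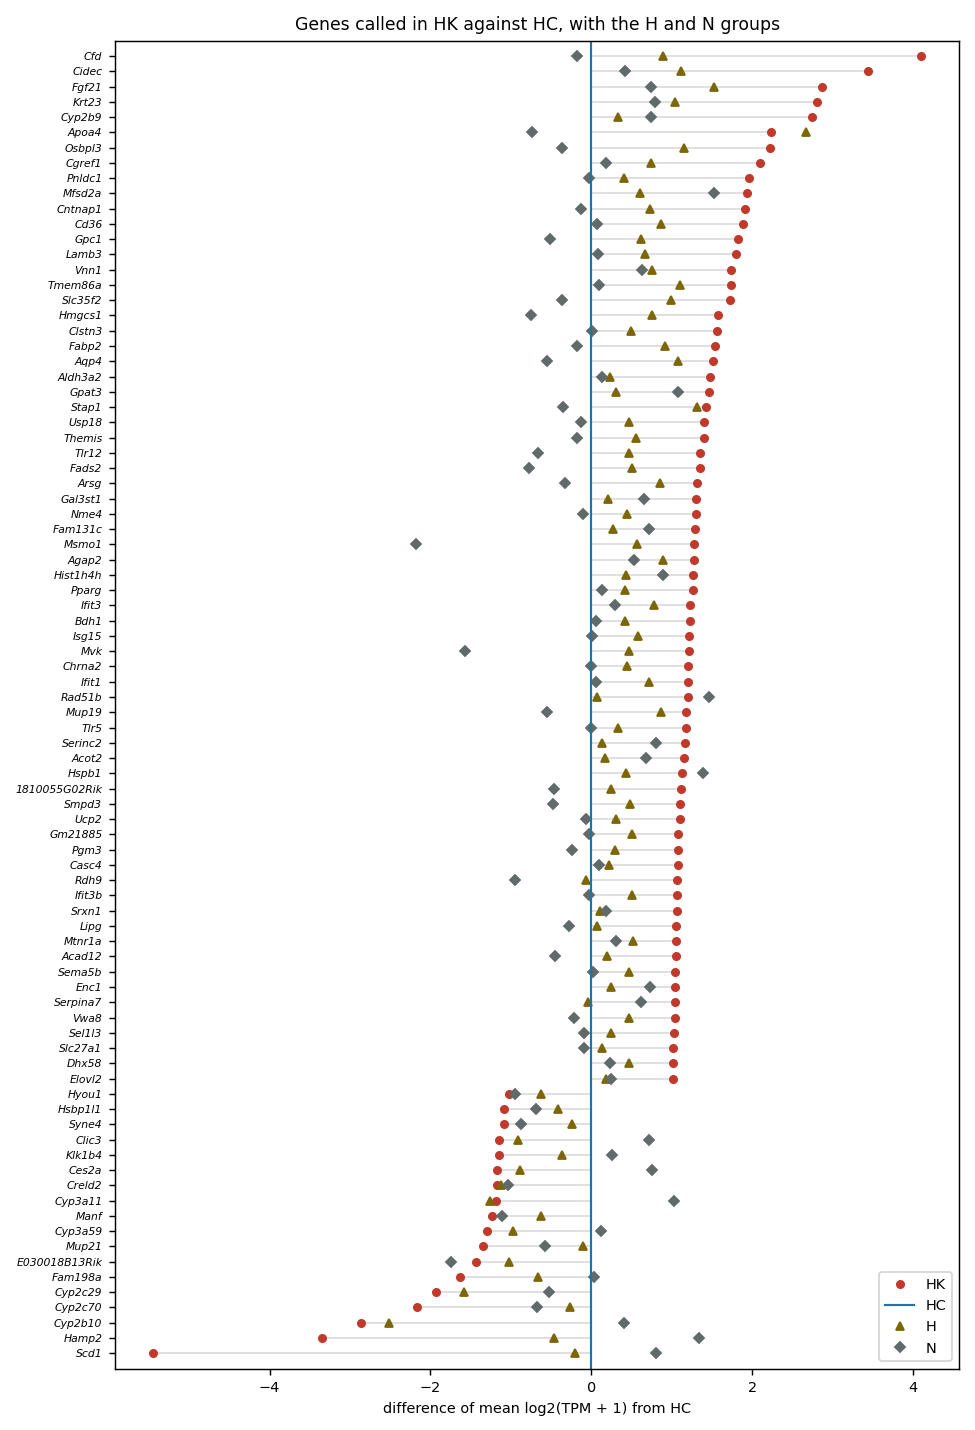
Difference of the group mean of log2(TPM + 1) from the HC mean for HK (red), H (gold) and N (grey) livers, for the 86 called genes ordered by their HK value; the blue line is HC. H lies nearer the HC line for most higher genes and near HK for several lower genes such as Cyp2b10.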

How the data were processed

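RNA of 16 mouse livers was sequenced as 150 bp paired-end reads. The submitters' processing notes name HISAT2, RSEM 1.1.17, edgeR 3.14.0 and the build mm10; the design text names Ensembl release 96 and FPKM. The deposited gene and transcript values are TPM, since each column sums to 1000000, and gene values equal the sum of their transcripts within 9e-06 TPM. Because each column has a fixed sum, a gene can rise in TPM when abundant RNAs fall.

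Genes were kept at 1 TPM or more in 4 or more of the HK and HC libraries (8 in all), and log2(TPM + 1) was fitted with limma 3.58.1 in R 4.3.3 with an intensity trend and no covariate, with Benjamini-Hochberg adjustment over 11002 genes. The fit was tested on simulated data. Named genes are up to 12 called genes of largest change in each direction with a mean of at least 1 TPM, leaving out predicted genes, up to 3 passing genes of each list, and Acaca, Acacb, Fasn, Scd1, Mlycd, Sirt5, Srebf1 and Cpt1a. Some genes that this rule or the lists name are not reported here. Lists are described by counts and medians with no set test. The comparison, the gene lists and the motifs were chosen with earlier results of these data known, and any other gene named was added after its values were seen. Alternatives were other pseudocounts, filters and scalings, mitochondrial genes left out, all 16 libraries, a covariate, weights, the replicate number as a block, and each library left out. Promoters came from RefSeq, GRCm38.p6.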

Additional observations from a re-analysis of the deposited data

Results flagged for a closer look

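In 18 of 216 sets of 4 libraries (108 described genes in the HK and the HC group), 1 library stood far from the other 3 of its group. The cutoff flags about 1 in 20 sets of normally distributed values. The sets here are of TPM, and some genes were added after their values were seen, so that rate cannot be compared with the 18. HK1 accounted for 7 of the 18. It was high for Apoa4 (7053 TPM, the next HK library 2448 TPM), Cntnap1 (10.9 TPM, next 2.83 TPM), Scd1 (66.7 TPM, next 19.7 TPM), Gpat3 (18.3 TPM, next 9.24 TPM), Mt1 (718 TPM, next 115 TPM) and Mt2 (507 TPM, next 44.8 TPM), and low for Fasn (18.7 TPM, next 45.2 TPM). HK3 was high for Hyou1 (37.3 TPM, next 22.9 TPM) and HK4 low for Ifit1 (6.01 TPM, next 9.98 TPM).

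In the HC group, HC1 was high for Scd1 (1583 TPM, next 916 TPM), Gstm2 (112 TPM, next 75.1 TPM), Angptl8 (179.6 TPM, next 77.6 TPM) and Irf7 (30.1 TPM, next 22.7 TPM). HC2 was low for Acadl (159 TPM, next 184 TPM) and Hsd17b4 (186 TPM, next 253 TPM). HC3 was high for Dnajb9 (58.4 TPM, next 47.95 TPM). HC4 was high for Dbp (83.4 TPM, next 20.8 TPM) and low for Pdia4 (98.9 TPM, next 121 TPM).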

How the results depend on the processing

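Against 86 called genes (68 higher, 18 lower), the counts were 36 (25, 11) with a pseudocount of 5, 57 (44) with no filter on low values, 39 higher and 35 lower with median-ratio scaling, 37 higher and 30 lower with quantile normalization, 147 (111, 36) with library quality weights, and 1 (0 higher, 1 lower) with the share of the 20 highest genes as a covariate. Against 554 genes that passed (474 higher, 80 lower), they were 274 (230, 44) with no filter, 306 (129, 177) with median-ratio scaling, 280 (158, 122) with quantile normalization, 107 (81, 26) in the fit on all 16 libraries, 2628 (2353, 275) with weights and 1 (0, 1) with the covariate. Leaving out 1 library gave 52 to 174 called (40 to 148 higher, 12 to 28 lower) and 162 to 2513 passed (131 to 2331 higher, 28 to 182 lower). The fewest called were without HC2, the fewest passed without HK2, and the most of either without HK4.

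With the replicate number as a block 76 genes were called and 181 passed (147 higher, 34 lower). Deviations of same-numbered HK and HC libraries correlated at 0.095, -0.186, -0.059 and -0.068, and 0 of the 4 HK libraries correlated best with the HC library of its number, so the numbers do not pair the libraries. Fasn changed sign with median-ratio scaling (-0.12), quantile normalization (-0.087) and without HK2, HK3, HK4 or HC3 (-0.14 to 0.40 over the fits that left out 1 library), and Mlycd with median-ratio scaling (-0.14) and quantile normalization (-0.029); neither passed in any of these. Of the 96 described genes that passed, 42 did so in every alternative in which they were tested, apart from the covariate, and 61 in every fit that left out 1 library; no gene that passed changed sign. The cause of these changes was not tested.

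A fit without libraries with over 33% of TPM in 20 genes was not run, since 0 of the 8 exceed that share. Depth is unknown in TPM, so low levels carry an error that cannot be given. With 4 libraries a group, a gene that did not pass is not shown to be unchanged.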

Other observations

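Among the called genes outside the lists, several encode lipid-binding and cell surface proteins; they were picked after their values were seen. Fabp2, the intestinal fatty acid-binding protein, had 269.9, 261, 205 and 320.1 TPM in HK livers, against 101, 80.3, 91.1 and 84.9 TPM in HC livers, against 151 to 181 TPM in H livers and 64.2 to 103 TPM in N livers (log2 fold change 1.54 ± 0.13 (SE), adjusted p = 0.000328). Slc27a1, a fatty acid transport protein, had 16.9, 23.7, 22.9 and 24.4 TPM in HK livers, against 11.9, 7.88, 11.1 and 10.5 TPM in HC livers (log2 fold change 1.02 ± 0.15 (SE), adjusted p = 0.00719). The HK values of both were above all HC values. Gpc1, the heparan sulfate proteoglycan glypican-1, had 26.5, 21.9, 22.3 and 19.8 TPM in HK livers, against 5.15, 4.77, 6.38 and 6.41 TPM in HC livers (log2 fold change 1.83 ± 0.13 (SE), adjusted p = 0.000141). Slc35f2, a solute carrier, had 6.78, 5.98, 5.47 and 4.76 TPM in HK livers, against 1.31, 1.31, 0.865 and 0.728 TPM in HC livers (log2 fold change 1.72 ± 0.16 (SE), adjusted p = 0.00037), and Lamb3, a laminin chain, had 5.43, 7.38, 8.65 and 7.65 TPM in HK livers, against 2.23, 0.734, 1.29 and 1.404 TPM in HC livers (log2 fold change 1.797 ± 0.20 (SE), adjusted p = 0.00191). Each stayed without overlap between the groups and passed in every fit that left out 1 library.

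The water channel Aqp4 had 6.803, 6.75, 9.11 and 7.42 TPM in HK livers, against 1.32, 1.52, 1.93 and 3.52 TPM in HC livers (log2 fold change 1.51 ± 0.20 (SE), adjusted p = 0.00487), and H livers held 3.19 to 8.09 TPM. Tmem86a, an enzyme that cleaves lysoplasmalogens, had 47.7, 24.8, 16.1 and 24.2 TPM in HK livers, against 5.65, 6.55, 7.84 and 9.02 TPM in HC livers (log2 fold change 1.73 ± 0.27 (SE), adjusted p = 0.00848), with HK1 highest and an H library, H3, at 38.3 TPM. Tlr5, the receptor for flagellin, was at 5.495 to 8.16 TPM in HK livers and 1.73 to 3.19 TPM in HC livers (log2 fold change 1.17), and Tlr12, a mouse Toll-like receptor, at 10.1 to 14.04 TPM in HK livers and 2.79 to 6.33 TPM in HC livers (1.36), both without overlap. Hspb1, a small heat shock protein, averaged 73.8 ± 21.8 TPM in HK livers and 32.9 ± 7.402 TPM in HC livers (log2 fold change 1.13 ± 0.21 (SE), adjusted p = 0.0166), but without HK2 or HC2, left out in turn, the adjusted p of Hspb1 was 0.0551 to 0.0595, and N livers were at 55.6 to 131 TPM.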
